A study of Mus musculus with 3 samples.

Results

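The CCN family genes Ccn1, Ccn2, Ccn3, Ccn4 and Ccn5 were followed through single-cell RNA sequencing of the mouse flexor digitorum longus (FDL) tendon. The members were the rows of the deposited gene lists that carry one of these 5 symbols, and all 5 were found among 32285 genes. They were described across cell classes gated on marker genes and across 3 libraries named 6 M WT, 6 M DTR and, in the aged animals, 21 M B6, each from 16 pooled FDL tendons of mice of both sexes.

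The 6 M WT group was Scx-Cre-; DTR F/+ and the 6 M DTR group Scx-Cre+; DTR F/+, both on C57BL/6J. Both carried the diphtheria toxin receptor (DTR) allele behind a loxP-flanked stop cassette, and both received 5 daily injections of diphtheria toxin (DT) in the hind paws at 3 months of age, the age the labels give. They were harvested at 6 months. Scx-Cre removes the stop cassette in cells whose lineage has expressed Scleraxis at any time, so the toxin kills those tendon cells in 6 M DTR, and cells that never recombined or that survived remain. The 21 M B6 group was C57/Bl6 at 21 months, untreated, so it differs from 6 M WT in age, in the DTR allele and in toxin, which cannot be told apart here. The 6 M WT tendons were digested in collagenase for 120 min and those of the other groups for 90 min, so digestion time cannot be told apart from either comparison with 6 M WT. Both comparisons use the same 6 M WT library. With 1 library per group no test was possible: every interval given covers counting error only, at 95%.

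CCN proteins are matricellular: they are secreted into the extracellular matrix and act on cells mainly through integrins, heparan sulfate proteoglycans and growth factors rather than as structural matrix. Each is built from an insulin-like growth factor binding protein domain, a von Willebrand factor type C repeat, a thrombospondin type 1 repeat and, in all but Ccn5, a C-terminal cystine knot. Ccn1 (CYR61) and Ccn2 (CTGF) are immediate early genes and standard readouts of the mechanosensitive cofactors YAP and TAZ, and Ccn2 is also a classic target of TGF-beta. Ccn3 (NOV) often opposes Ccn2 and is used to mark the epitenon, the thin layer that surrounds the tendon. Ccn4 (WISP1) and Ccn5 (WISP2) were named as genes induced by Wnt signalling.

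The coding regions show how far the 5 genes are related. In GENCODE release M21 (GRCm38) the first listed transcript of each gene has 5 exons, with a coding region of 379 codons for Ccn1, 348 for Ccn2, 354 for Ccn3, 367 for Ccn4 and 251 for Ccn5. Ccn1 lies at chr3:145646976-145649981 on the minus strand, Ccn2 at chr10:24595442-24598678, Ccn3 at chr15:54745702-54754039, Ccn4 at chr15:66891320-66923201 and Ccn5 at chr2:163820889-163833146, all on the plus strand. The stretch of 45 coding bases most alike in all 5 genes encodes part of the thrombospondin type 1 repeat and is shown because it lies in a repeat that all 5 members have, the shorter Ccn5 included. Capitals mark the 24 bases that are the same in every member.
Ccn1 (codons 234 to 248): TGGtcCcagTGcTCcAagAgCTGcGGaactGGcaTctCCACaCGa
Ccn2 (codons 205 to 219): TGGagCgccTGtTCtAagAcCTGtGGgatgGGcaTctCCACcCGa
Ccn3 (codons 210 to 224): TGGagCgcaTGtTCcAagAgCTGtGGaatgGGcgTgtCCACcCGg
Ccn4 (codons 223 to 237): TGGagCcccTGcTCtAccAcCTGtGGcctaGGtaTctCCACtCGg
Ccn5 (codons 202 to 216): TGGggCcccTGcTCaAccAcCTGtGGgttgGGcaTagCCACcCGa
Even so, the longest run of identical bases between any pair of these transcripts was 28 bases, between Ccn2 and Ccn3, and the other pairs shared at most 18.

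Ccn1 was the member with the largest ratios between tenocytes of the libraries, and its promoter was the 1 of 5 for which a RefSeq entry was available. The 250 bases before its start lie at chr3:145649986-145650235 of GRCm38.p6, on the minus strand, and are printed 5′ to 3′ with the motifs found in capitals.
Ccn1 promoter: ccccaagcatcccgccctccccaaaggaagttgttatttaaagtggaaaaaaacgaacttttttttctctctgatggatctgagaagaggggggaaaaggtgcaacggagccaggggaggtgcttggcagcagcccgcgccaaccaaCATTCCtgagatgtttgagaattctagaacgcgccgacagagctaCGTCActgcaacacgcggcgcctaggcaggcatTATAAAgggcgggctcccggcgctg
The TEAD motif GGAATG, searched on both strands, was found once, as CATTCC from base -103 to -98 before the start. The half-site TGACG of the cyclic AMP response element, searched on both strands, was found as CGTCA from -58 to -54, and the TATA box TATAAA, searched on the sense strand, from -25 to -20. No CArG box, the element bound by SRF, was in this window. Of 27025 promoters of the same length, 12.6% held the TEAD motif, 17.9% the half-site, 8.12% the TATA box and 1.40% a CArG box, none of the motifs overlapping another in Ccn1.

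After the filter of the study (1000 to 5000 genes and at most 10% mitochondrial counts) 8357, 6554 and 4798 cells remained (6 M WT first, then 6 M DTR, then 21 M B6), with a median of 13008, 12328 and 12914 unique molecular identifiers (UMIs) per cell. Cells were placed in a class by 8 marker genes each, and 83.1% to 88.6% of cells per library were placed. The gates held 5356, 2863 and 899 tenocytes and 924, 823 and 2146 epitenon fibroblasts in the same order of libraries, and the genes leading each gate included its own markers and no marker of another class. Cells were chosen by these markers, so this describes the gates and does not test them. Among unsupervised clusters, those rich in tenocytes held different shares of the libraries, with clusters 1 and 0 the largest in 6 M WT, 7 and 1 in 6 M DTR and 0 and 6 in 21 M B6, while epitenon fibroblasts of 6 M WT and 6 M DTR lay mainly in cluster 3 and those of 21 M B6 in clusters 3 and 4. Of cells whose sex could be called, 71.9%, 40.9% and 55.8% were female, so the sexes were also compared separately. Pairs of libraries shared 13 to 15 kept cell barcodes. Before the filter the libraries held 15536, 16099 and 12273 barcodes, of which 27.6%, 43.1% and 56.5% exceeded 10% mitochondrial counts. The part of this difference in the levels below was not tested.

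Values given for the 3 libraries follow the order 6 M WT, then 6 M DTR, then 21 M B6. Levels are given in CPM, the UMIs of a gene scaled to 1000000 UMIs summed over the cells of a class in 1 library. These are counts of the 3′ ends of transcripts, not scaled by length, and are compared here between cell classes and libraries for 1 gene at a time.

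The members differed in which of the 7 classes described here they were highest. Ccn1 was measured in all stromal and vascular classes, Ccn2 had its highest level in tenocytes, Ccn3 in epitenon fibroblasts, Ccn4 was low and, in 6 M WT, highest in macrophages and tenocytes, and Ccn5 was found in epitenon fibroblasts and tenocytes. Satellite cells, with 31 to 34 cells per library, were not compared, and in 21 M B6 their Ccn2 level of 1965 CPM was above that of tenocytes. T cells held from 0 to 27 UMIs of each member in each library except 111 of Ccn2 in 6 M DTR. Of all Ccn2 UMIs in kept cells, 77.4%, 70.7% and 28.6% were in tenocytes of the 3 libraries, whereas 74.6%, 71.0% and 89.9% of all Ccn3 UMIs in the 3 libraries were in epitenon fibroblasts. These shares also depend on class size. Tenocytes were 64.1%, 43.7% and 18.7% of kept cells, and epitenon fibroblasts 11.1%, 12.6% and 44.7%.

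**Figure D1:**
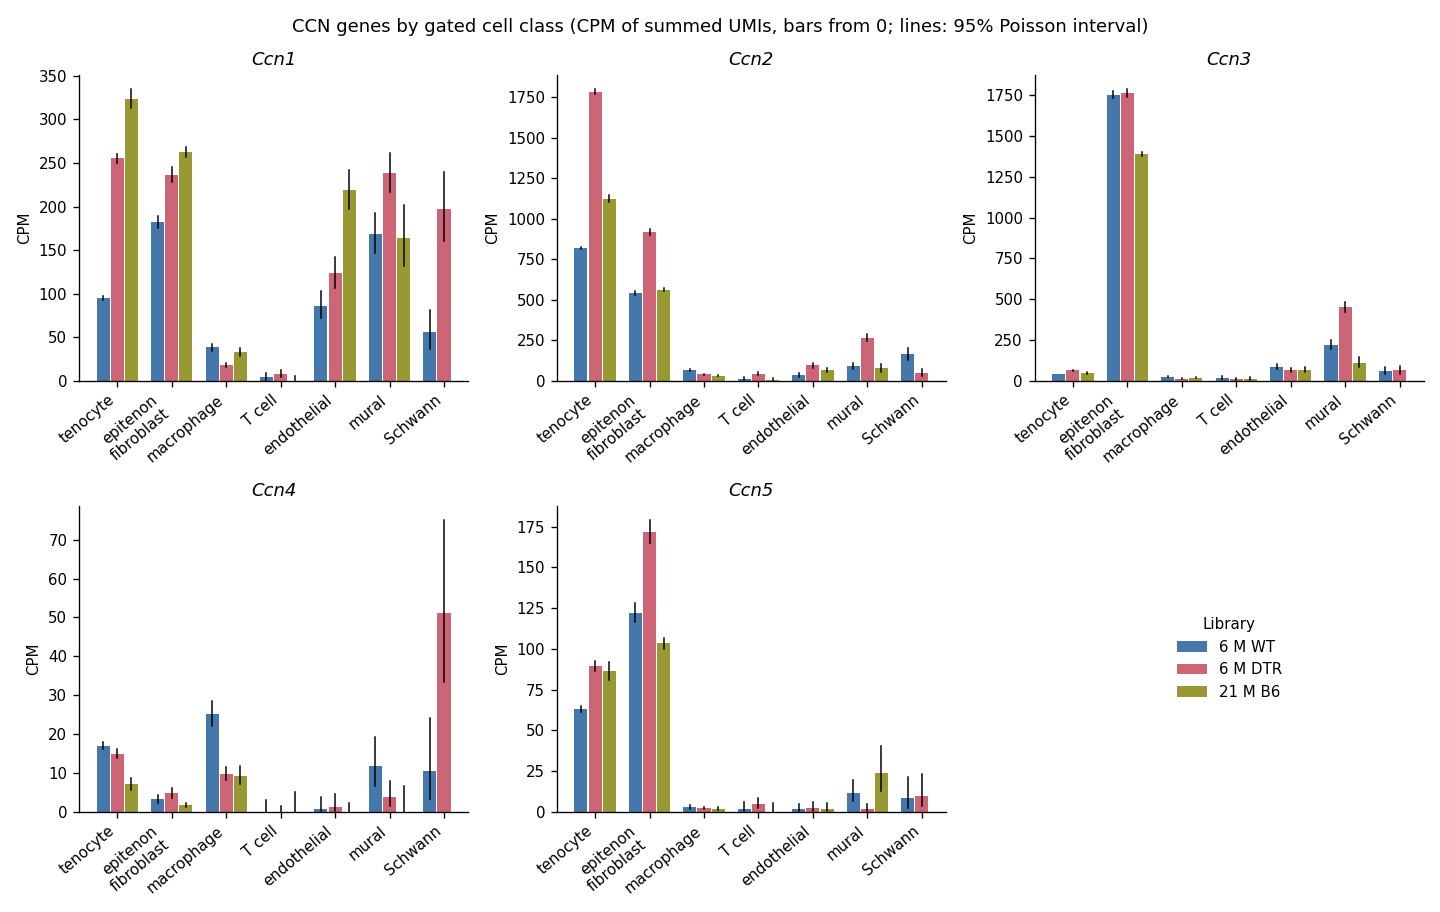
Level (CPM, linear axes from 0, each panel with its own scale) of each CCN gene in 7 gated cell classes of the 3 libraries, with 95% Poisson intervals as lines; classes under 50 cells in a library are not drawn. Ccn3 stands at 1392 to 1763 CPM in epitenon fibroblasts and at 449 CPM or below in every other class drawn, whereas Ccn2 is highest in tenocytes of 6 M DTR at 1785 CPM.

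Ccn1, the CYR61 gene, was at 183 CPM (interval 176 to 190) in epitenon fibroblasts of 6 M WT and at 169 CPM (147 to 193) in mural cells, the pericytes and smooth muscle of vessels. Next came tenocytes at 95.2 CPM (93.0 to 97.5) and endothelial cells at 86.3 CPM (72.1 to 102). Schwann cells were at 55.7 CPM (36.7 to 81.0), macrophages at 38.4 CPM (34.5 to 42.6) and T cells at 4.04 CPM. The intervals of epitenon fibroblasts and mural cells overlapped, as did those of tenocytes and endothelial cells, of endothelial and Schwann cells, and of Schwann cells and macrophages.

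In tenocytes Ccn1 stood at 95.2, 255 and 324 CPM in the 3 libraries. The ratio to 6 M WT was 2.68 (2.60 to 2.77) for 6 M DTR and 3.40 (3.26 to 3.54) for 21 M B6, and 99.2% of the genes with at least 20 CPM had a lower ratio in either comparison. The tenocytes of 6 M WT were thus the group with the lowest Ccn1 of the 3. The tenocytes of 6 M DTR and 21 M B6 stood apart by less, with 21 M B6 at 1.27 times (1.22 to 1.32) the level of 6 M DTR. This excess was not general. Among tenocytes called female 6 M DTR had 240 CPM (231 to 249) and 21 M B6 235 CPM (221 to 249). Those called male had 271 and 340 CPM. The signal was uneven among cells, since the 10% of tenocytes with the most UMIs of Ccn1 held 75.1%, 57.3% and 66.6% of them in the 3 libraries.

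With each cell thinned to 2000 UMIs, 12.1% (11.3 to 13), 28.2% (26.6 to 29.9) and 25.3% (22.5 to 28.3) of tenocytes in the 3 libraries held a UMI of Ccn1. Without thinning the shares were 31.8%, 57.8% and 50.4%, at median depths of 12930, 12395 and 11250 UMIs. T cells, used as the class that should lack the gene, had 0% (up to 3.03), 2.31% (0.934 to 4.70) and 0% (up to 5.06) after thinning, at median depths of 9958, 7842 and 9550 UMIs. The share of tenocytes was therefore above that of T cells in every library, and the 2 libraries with a higher CPM also had a larger share of positive cells. Macrophages had 4.33%, 3.30% and 6.28%. When the macrophage level was subtracted as a background, the tenocyte ratios became 4.18 for 6 M DTR and 5.12 for 21 M B6. These are more than 1.5 times the values without subtraction. Macrophages stood at 38.4, 17.5 and 32.6 CPM of Ccn1 in the 3 libraries, but T cells at only 4.04, 7.79 and 0 CPM. Both ratios thus depend on macrophages being taken as the background, and the T cell level was not subtracted.

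Epitenon fibroblasts differed less, with Ccn1 at 183, 236 and 263 CPM in the 3 libraries. These are ratios of 1.30 (1.23 to 1.36) and 1.44 (1.38 to 1.5). Both lay within 1.5-fold, but that of 6 M DTR passed it with the macrophage level subtracted (1.52) and in cells called female (1.51). That of 21 M B6 did so with TMM scaling (edgeR's trimmed mean of M values, 1.73), with the macrophage level subtracted (1.60) and in cells called male (1.53). The values with subtraction again depend on macrophages being taken as the background. The tenocyte ratio exceeded the epitenon ratio in either comparison without overlap of the intervals. In 6 M DTR tenocytes lay slightly above epitenon fibroblasts in Ccn1, at 255 CPM (250 to 260) against 236 CPM (228 to 245). In 21 M B6 they exceeded them by more, at 324 CPM (313 to 335) against 263 CPM (257 to 269).

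Among other classes, endothelial cells had Ccn1 at 86.3, 124 and 219 CPM in the 3 libraries, ratios of 1.43 (1.14 to 1.81) and 2.53 (2.07 to 3.12). The 8 mural markers, none of them at 0, summed to 1060, 1041 and 3116 CPM in endothelial cells and the 8 endothelial markers, also none at 0, to 6978, 6274 and 4895 CPM, so 21 M B6 was highest in the first and lowest in the second, and their part in the endothelial values was not tested. Within cells called female the endothelial Ccn1 ratio of 21 M B6 was 3.86 (2.82 to 5.36). Mural cells had 169, 238 and 164 CPM, with ratios of 1.41 (1.20 to 1.67) and 0.972 (0.752 to 1.25). Schwann cells had 55.7 and 197 CPM in the 6 M libraries, WT first, at a ratio of 3.54 (2.29 to 5.63) on 27 and 100 UMIs, 40 of the latter from 1 cell. Macrophages went the other way in 6 M DTR, at 17.5 CPM against 38.4 CPM, a ratio of 0.456 (0.387 to 0.537), and the 8 tenocyte markers in macrophages were also lower there, at 179 against 315 CPM with none at 0. Their part in the Ccn1 values was not tested. A higher Ccn1 level in 6 M DTR was thus measured in 5 of the 7 classes by intervals above 1, and not in macrophages or, beyond counting error, in T cells.

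The tenocyte class was divided further by sub-gate markers. Among these markers Slurp1, Serpinb7 and Vcan also lead a cluster of these data, so the sub-gates are not independently established states. Ccn1 was nearly level among sub-gates in 6 M WT, at 101 CPM in Slurp1/Serpinb7/Vcan cells, 93.8 CPM in Kera/Ucma cells and 92.9 CPM in Igfbp3/Scn7a cells. The same sub-gates stood at 208, 313 and 269 CPM in 6 M DTR and at 354, 302 and 277 CPM in 21 M B6. Every sub-gate thus had more Ccn1 than its 6 M WT counterpart, with ratios from 2.07 to 3.34 for 6 M DTR and, for 21 M B6, from 2.99 to 3.51. The sub-gates of 21 M B6 held 59, 126 and 60 cells. Of tenocytes, 55.6%, 55.9% and 72.7% in the 3 libraries fell in no sub-gate, with ratios of 2.48 (2.38 to 2.59) and 3.54 (3.36 to 3.72).

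Clustering without the CCN genes gave a more uneven picture. Cluster 0, led by the interferon-response genes Gbp6 and Ifi205, had Ccn1 at 32.2, 56.5 and 97.7 CPM in the 3 libraries, and cluster 1, led by Slurp1 and Serpinb7, at 92.1, 215 and 202 CPM. Cluster 6 had 251, 295 and 940 CPM, and its 254 cells from 21 M B6 held 2373 Ccn1 UMIs, against 514, 490 and 272 in clusters 0, 1 and 7 of that library. Haemoglobin and heat shock genes led cluster 6 (Hba-a2, Hba-a1, Hbb-bs and Hspa1a), with Fos and Ccn1 itself among its 15 leading genes, and its median depth was 10119 UMIs. Cluster 7, led by Mstn and by skeletal muscle genes such as Acta1 and Tnnc2, had 133, 350 and 331 CPM and took 1134 of its 1350 cells from 6 M DTR, so it may be that library rather than a type. Ccn1 was lowest in 6 M WT in each of the 4 clusters, and 6 M DTR came closest to it in cluster 6. The level of 21 M B6 was above that of 6 M DTR in clusters 0 and 6. In clusters 1 and 7 it was not, and the intervals of 6 M DTR and 21 M B6 overlapped.

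**Figure D2:**
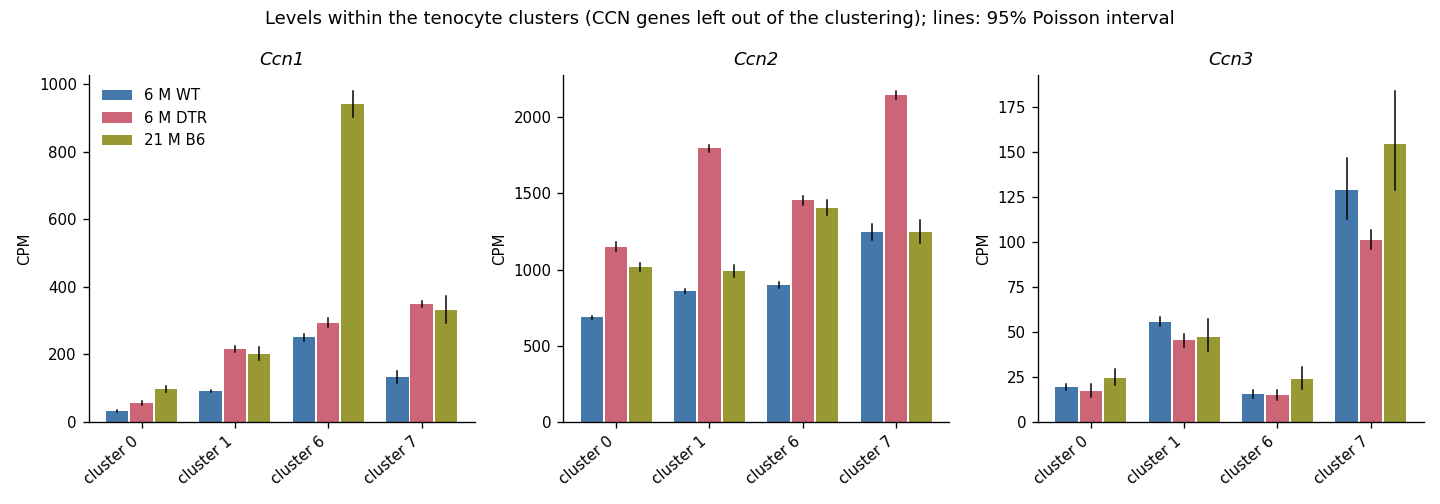
Levels (CPM, linear axes from 0) of Ccn1, Ccn2 and Ccn3 in the 4 tenocyte clusters of each library, with 95% Poisson intervals as lines. Ccn1 reaches 940 CPM in cluster 6 of 21 M B6 against 251 CPM in 6 M WT, and the Ccn3 level of 6 M DTR is below that of 6 M WT in all 4 clusters, with overlapping intervals in clusters 0 and 6.

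Ccn2, the CTGF gene, was at 821 CPM (815 to 828) in tenocytes of 6 M WT, followed by epitenon fibroblasts at 544 CPM (532 to 556). Far below were Schwann cells at 163 CPM (129 to 203), mural cells at 90.2 CPM (74.5 to 108), macrophages at 65.9 CPM (60.7 to 71.3), endothelial cells at 34.5 CPM (25.8 to 45.3) and T cells at 12.9 CPM (7.39 to 21.0). No neighbours in this order overlapped in their intervals.

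Between libraries, Ccn2 of tenocytes was at 821, 1785 and 1124 CPM in the 3 libraries. The ratio to 6 M WT was 2.17 (2.15 to 2.20) for 6 M DTR, higher than that of 98.3% of genes, and 1.37 (1.34 to 1.40) for 21 M B6, higher than that of 91.6% of genes. Unlike Ccn1, Ccn2 thus stood highest in 6 M DTR, and 21 M B6 was at 0.630 times (0.617 to 0.642) the level of 6 M DTR. After thinning, 46.8% (45.4 to 48.1), 68.4% (66.7 to 70.1) and 51.2% (47.9 to 54.5) of tenocytes held a UMI of Ccn2, and without thinning 75.4%, 90.2% and 77.6%. T cells had 0.833%, 4.95% and 0% after thinning, and levels of 12.9, 43.2 and 5.39 CPM, 34 of the 111 UMIs in 6 M DTR coming from 1 cell.

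Epitenon fibroblasts had Ccn2 at 544, 918 and 563 CPM in the same order. The ratio was 1.69 (1.64 to 1.74) for 6 M DTR, higher than that of 99.5% of genes, and 1.03 (1.01 to 1.06) for 21 M B6, which fell below 1 when clusters replaced the gate (0.884), with no upper limit on genes (0.964) and as a mean over cells (0.997). The 6 M DTR ratio was past 1.5-fold in 9 of 12 alternatives. It was 1.45 with clusters in place of the gate, 1.45 with no upper limit on genes and 1.47 with a stricter gate. The alternative without doublets called by Scrublet's own threshold dropped only 2, 7 and 1 cells of the 3 libraries, so it could hardly differ. Ccn2 was concentrated in few cells, since 10% of epitenon fibroblasts held 68.8%, 72.6% and 67.5% of the Ccn2 UMIs. The share of positive cells moved little, at 34.2%, 39.5% and 35.6% after thinning with overlapping intervals for 6 M WT and 6 M DTR.

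Vascular cells also had the most Ccn2 in 6 M DTR, at levels below the stroma. Endothelial cells had 34.5, 95.1 and 66.4 CPM, ratios of 2.76 (2.0 to 3.85) and 1.92 (1.37 to 2.72), and mural cells 90.2, 266 and 77.5 CPM, ratios of 2.95 (2.41 to 3.65) and 0.859 (0.591 to 1.23). Tenocyte markers summed to 265, 421 and 227 CPM in mural cells, 1 of 8 being at 0 in 6 M WT and in 21 M B6, and were thus also highest in 6 M DTR. In endothelial cells called female the Ccn2 ratio of 21 M B6 was 3.12 (1.96 to 5.08). Macrophages instead had the most in 6 M WT, at 65.9, 38.6 and 30.7 CPM, ratios of 0.586 (0.522 to 0.658) and 0.466 (0.397 to 0.546). The 8 tenocyte markers stood in the same order in macrophages, at 315, 179 and 144 CPM with 1 at 0 in 21 M B6. The part of these markers in the vascular and macrophage values was not tested. Schwann cells had 163 and 47.3 CPM in the 6 M libraries, WT first, on 79 and 24 UMIs, 43 of the former from 1 cell.

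All 3 tenocyte sub-gates had more Ccn2 in 6 M DTR than in 6 M WT. Igfbp3/Scn7a cells went from 842 to 2239 CPM, a ratio of 2.66 (2.50 to 2.82), Kera/Ucma cells from 862 to 1828 CPM, a ratio of 2.12 (2.08 to 2.17), and Slurp1/Serpinb7/Vcan cells from 833 to 1536 CPM, a ratio of 1.84 (1.79 to 1.90). The sub-gates were close to each other in 6 M WT and lay apart, without overlap of their intervals, in 6 M DTR. The ratios of 21 M B6 were 1.04 (0.955 to 1.14), then 1.61 (1.55 to 1.68), then 1.59 (1.49 to 1.69), so Igfbp3/Scn7a cells had the largest ratio in 6 M DTR and the smallest in 21 M B6. The 4 tenocyte clusters had Ccn2 at 688, 859, 899 and 1246 CPM in 6 M WT and at 1151, 1795, 1453 and 2145 CPM in 6 M DTR (clusters 0, 1, 6 and 7), higher in 6 M DTR in each.

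Within the epitenon fibroblasts, cells gated on Krtdap showed the largest Ccn2 ratio in 6 M DTR, with 607, 1389 and 830 CPM in the 3 libraries. The ratio of 6 M DTR was 2.29 (2.18 to 2.40), and that of 21 M B6 was 1.37 (1.30 to 1.43). Cells gated on Pi16, a marker of a universal fibroblast state, together with Dpp4 and Sema3c (Pi16 cells) had 345, 673 and 531 CPM. Cells gated on Gdf10/Inmt had 275, 331 and 335 CPM. Their ratios for 6 M DTR were 1.95 (1.79 to 2.13) and 1.20 (1.01 to 1.43), the latter resting on 49 cells of 6 M DTR. For 21 M B6 they were 1.54 (1.42 to 1.67) and 1.22 (1.09 to 1.37). Epitenon fibroblasts in no sub-gate had ratios of 1.45 for 6 M DTR and 0.942 (0.907 to 0.978) for 21 M B6. In 21 M B6 all 3 sub-gates thus had ratios above 1, while the whole class stood at 1.03. The part of the class make-up in that value was not tested.

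**Figure D3:**
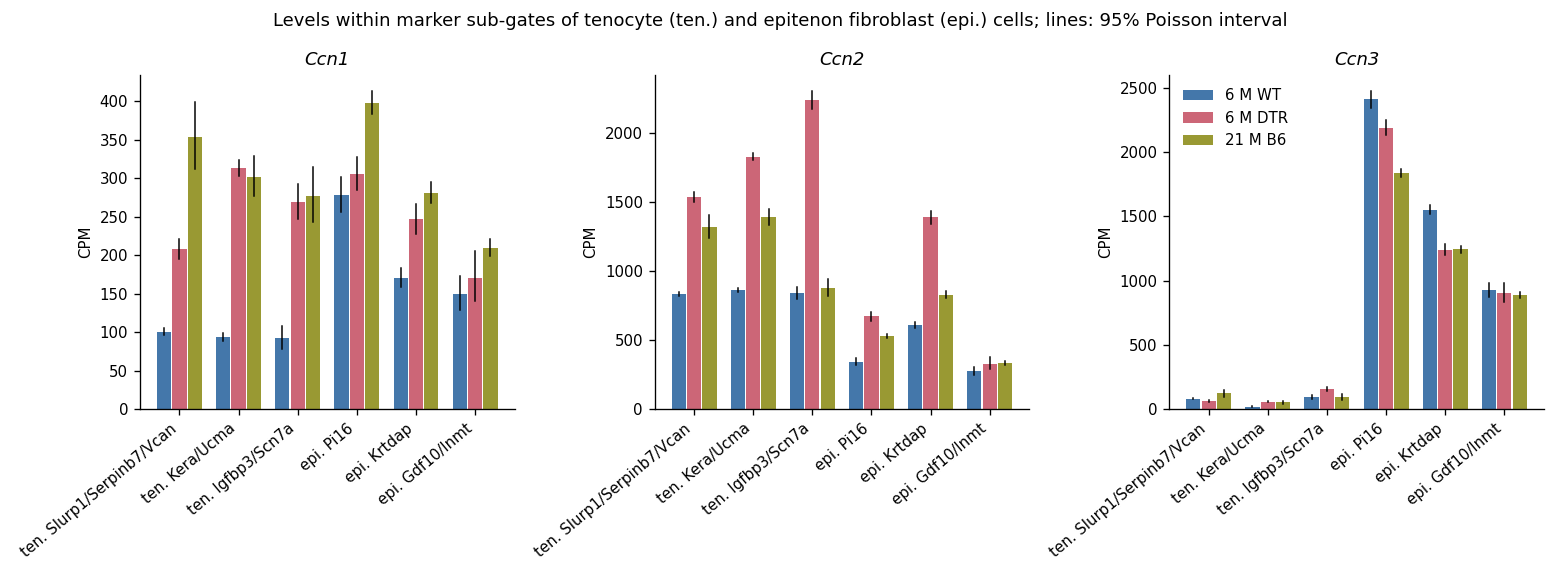
Levels (CPM, linear axes from 0) of Ccn1, Ccn2 and Ccn3 in 3 marker sub-gates each of tenocytes and epitenon fibroblasts, by library, with 95% Poisson intervals as lines. Ccn2 reaches 2239 CPM in Igfbp3/Scn7a tenocytes of 6 M DTR, and Ccn3 falls in order from Pi16 to Krtdap to Gdf10/Inmt cells in each library.

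Ccn3, the NOV gene, was at 1754 CPM (1733 to 1776) in epitenon fibroblasts of 6 M WT, and at 220 CPM (195 to 247) in mural cells. Endothelial cells had 83.7 CPM, Schwann cells 57.8 CPM, tenocytes 40.1 CPM, macrophages 25.9 CPM and T cells 18.6 CPM. The intervals of endothelial and Schwann cells, of Schwann cells and tenocytes and of macrophages and T cells overlapped. Ccn3 was not a marker of any gate and was among the 10 leading genes of the epitenon gate. The study marks the epitenon cells of these data by Ccn3, so this describes the gate and does not test it.

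Epitenon fibroblasts had Ccn3 at 1754, 1763 and 1392 CPM in the 3 libraries. The ratio for 6 M DTR was 1.01 (0.988 to 1.02), close to the median of all genes, with 49.2% of genes lower, and it fell below 1 in cells called male (0.840), with clusters in place of the gate (0.968) and with no upper limit on genes (0.989). The ratio for 21 M B6 was 0.794 (0.782 to 0.806), with 37.5% of genes lower, and the median log2 ratio of all genes in that comparison was -0.26, and with TMM scaling the ratio was 0.955. After thinning, 76.5% (73.6 to 79.2), 78.5% (75.5 to 81.3) and 74.6% (72.7 to 76.4) of epitenon fibroblasts held a UMI, with overlapping intervals in all 3 libraries, and 94.5% to 95.5% without thinning. The 10% of cells with the most UMIs held 36.8% to 37.5% of the Ccn3 UMIs.

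Ccn3 also separated the epitenon sub-gates in the same order in every library. Pi16 cells had 2409, 2189 and 1836 CPM in the 3 libraries. Krtdap cells had 1551, 1241 and 1242 CPM, and Gdf10/Inmt cells had 926, 907 and 886 CPM. The ratios for 21 M B6 were 0.762 (0.738 to 0.788), 0.801 (0.775 to 0.828) and 0.957 (0.898 to 1.02). The difference was thus larger than counting error in Pi16 and Krtdap cells but not in Gdf10/Inmt cells. The same held for 6 M DTR, at 0.909 (0.875 to 0.944) in Pi16 and 0.800 (0.768 to 0.834) in Krtdap cells. Gdf10/Inmt cells of 6 M DTR had a ratio of 0.979, and epitenon fibroblasts in no sub-gate 1.02, with intervals that included 1. Gdf10/Inmt cells made up 11.3%, 5.95% and 22.8% of the class in the 3 libraries.

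In tenocytes Ccn3 was at 40.1, 62.8 and 47.1 CPM, ratios of 1.56 (1.48 to 1.65) and 1.17 (1.07 to 1.29). The 6 M DTR value did not hold within tenocyte clusters, where Ccn3 of 6 M WT and 6 M DTR was 19.7 and 17.1 CPM in cluster 0, 55.8 and 45.3 CPM in cluster 1, 15.5 and 14.8 CPM in cluster 6, and 129 and 101 CPM in cluster 7. The 2 intervals overlapped in clusters 0 and 6. Cluster 7, the one with the most Ccn3, held 145 cells of 6 M WT and 1134 of 6 M DTR, and over the 4 clusters together the ratio was 1.49. In the sub-gates the ratio for 6 M DTR was 2.78 (2.44 to 3.17) in Kera/Ucma cells, 1.62 (1.34 to 1.97) in Igfbp3/Scn7a cells and 0.781 (0.687 to 0.885) in Slurp1/Serpinb7/Vcan cells. Tenocytes in no sub-gate, the larger part of the class, had a ratio of 1.90 (1.75 to 2.06). The 21 M B6 ratio of 1.17 fell below 1 with no upper limit on genes (0.818), with a stricter gate (0.916) and in cells called male (0.897), and it passed 1.5-fold with the macrophage level subtracted (2.07) and in cells called female (1.55). That of 6 M DTR ran from 1.23 with no upper limit on genes to 3.53 with the macrophage level subtracted. Of the 239 Ccn3 UMIs of macrophages in 6 M WT, 111 came from 1 cell, so both ratios with subtraction depend on that cell.
Thinned shares of tenocytes with a Ccn3 UMI were 5.62%, 7.79% and 7.80%, beside 2.50% (0.519 to 7.13), 3.63% (1.83 to 6.40) and 4.23% (0.880 to 11.9) in T cells, so the shares of 6 M WT and 21 M B6 lay within the T cell intervals. The summed level of the 8 epitenon markers in tenocytes, none of them at 0, was 1611, 1176 and 1470 CPM in the 3 libraries. In epitenon fibroblasts it was 3967, 3953 and 3804 CPM. The part of these markers in the tenocyte Ccn3 values was not tested.

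Mural cells were the other class with a clear Ccn3 signal, at 220 CPM in 6 M WT, 449 CPM (419 to 481) in 6 M DTR and 112 CPM (85.7 to 143) in 21 M B6. The ratio was 2.04 (1.78 to 2.34) for 6 M DTR and 0.508 (0.379 to 0.671) for 21 M B6, so the 2 comparisons went in opposite directions. Of mural cells whose sex could be called, 77.0%, 34.5% and 30.2% were female. Among cells called female, 6 M WT had 247 and 6 M DTR had 331 CPM of Ccn3, and their ratio of 1.34 (1.10 to 1.64) was under 1.5-fold, and male mural cells of 6 M DTR had 537 CPM, while the 31 male cells of 6 M WT and the 13 female and 30 male cells of 21 M B6 were too few to compare. In the mural gate the 8 endothelial markers, 1 of them at 0 in 21 M B6, summed to 186, 166 and 880 CPM and the 8 epitenon markers, with 2, 1 and 2 at 0, to 49.0, 42.0 and 261 CPM, while its own markers stood at 11622, 13412 and 9311 CPM. The part of these cells in the 21 M B6 values was not tested. Thinned shares were 23.5%, 37.9% and 11.8% on 149, 203 and 51 cells. Endothelial Ccn3, at 83.7, 64.5 and 68.1 CPM, had ratios of 0.771 (0.587 to 1.01) and 0.814 (0.628 to 1.05), whose intervals included 1.

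Ccn4, the WISP1 gene, was low everywhere. Macrophages of 6 M WT had 25.1 CPM (21.9 to 28.5) on 231 UMIs and tenocytes 17.0 CPM (16.1 to 18.0) on 1230 UMIs. Mural cells had 11.7 CPM, Schwann cells 10.3 CPM and epitenon fibroblasts 3.14 CPM, with 1 UMI among 159 endothelial cells. No T cell of any library held a UMI, and for the 303 T cells of 6 M DTR the exact binomial upper bound was 1.21% of cells with a UMI.

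In tenocytes Ccn4 was at 17.0, 14.9 and 6.99 CPM, ratios of 0.877 (0.792 to 0.969) for 6 M DTR and 0.411 (0.322 to 0.519) for 21 M B6, the latter on 76 UMIs. Thinned shares of 2.73% (2.31 to 3.20), 2.69% (2.13 to 3.35) and 1.00% (0.459 to 1.89) followed the same order, with 14.9%, 13.2% and 5.90% unthinned. Igfbp3/Scn7a tenocytes had the highest Ccn4 of the sub-gates in each library, at 25.2, 32.3 and 18.2 CPM. Its interval overlapped that of Kera/Ucma cells in 6 M WT and that of Slurp1/Serpinb7/Vcan cells in 21 M B6, and neither in 6 M DTR.

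Macrophages held Ccn4 in a different proportion to Ccn2 than tenocytes did. Tenocytes of 6 M WT had 59415 UMIs of Ccn2 for 1230 of Ccn4, whereas macrophages had 607 for 231, and after thinning 4.33% (2.80 to 6.38) of macrophages held a Ccn4 UMI. In 6 M DTR and 21 M B6 macrophages were at 9.64 and 9.22 CPM, ratios of 0.385 (0.310 to 0.476) and 0.368 (0.275 to 0.487), on 143 and 64 UMIs, with thinned shares of 1.23% and 1.26%. For 6 M DTR the ratio was 0.439 in macrophages called female and 0.209 in those called male. The 8 tenocyte markers, of which 1 was at 0 in 21 M B6 and none in the other libraries, summed to 315, 179 and 144 CPM in macrophages of the 3 libraries, likewise highest in 6 M WT, and their part in the Ccn4 values was not tested. Few cells carried Ccn4, since 10% of macrophages held 100% of its UMIs in 6 M DTR and in 21 M B6. In a division made after these values were seen, macrophages of 6 M WT without a Lyve1 UMI had 35.9 CPM (28.5 to 44.6). Those with one had 21.6 CPM (18.2 to 25.3). In 6 M DTR the order was opposite, at 4.57 CPM (3.11 to 6.49) and 13.9 CPM (11.4 to 16.7). In 21 M B6 the values were 3.51 CPM (0.724 to 10.3), on 3 UMIs, and 10.0 CPM (7.67 to 12.9), with overlapping intervals. A division by MHC class II level, made alongside, gave overlapping intervals in each library. Single cells held up to 21 of the 231 Ccn4 UMIs in 6 M WT and 18 of the 143 in 6 M DTR. Schwann cells of 6 M DTR had 51.2 CPM of Ccn4, but 20 of their 26 UMIs came from 1 cell.

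Ccn5, the WISP2 gene, was at 122 CPM (116 to 128) in epitenon fibroblasts of 6 M WT and at 62.9 CPM (61.0 to 64.7) in tenocytes. Mural cells had 11.7 CPM, Schwann cells 8.25 CPM, macrophages 2.50 CPM, T cells 1.62 CPM and endothelial cells 1.33 CPM, the last 2 on 2 UMIs each. Of its UMIs in 6 M WT, 64.7% were in tenocytes and 25.4% in epitenon fibroblasts.

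Tenocytes had Ccn5 at 62.9, 89.4 and 86.5 CPM, ratios of 1.42 (1.36 to 1.49) and 1.38 (1.28 to 1.48). Epitenon fibroblasts had 122, 172 and 103 CPM, ratios of 1.41 (1.32 to 1.5) and 0.846 (0.799 to 0.897). The ratio of 6 M DTR was nearly the same in both classes, with intervals that overlap, and 92.3% of genes in tenocytes and 98.1% in epitenon fibroblasts were lower. The epitenon ratio of 21 M B6 rose above 1 with TMM scaling (1.02). Thinned shares in epitenon fibroblasts were 18.0% (15.6 to 20.6), 26.1% (23.2 to 29.3) and 15.1% (13.7 to 16.7), and in T cells 0%, 0.33% and 0%.
Among the epitenon sub-gates, Ccn5 ran opposite to Ccn3 in 6 M WT, from 171 CPM in Gdf10/Inmt cells through 152 CPM in Krtdap cells to 77.1 CPM in Pi16 cells, the intervals of the first 2 overlapping. Pi16 cells had the largest ratio in 6 M DTR, at 149 CPM and a ratio of 1.94 (1.61 to 2.34). The 23.4 CPM of mural cells in 21 M B6 rested on 13 UMIs, all from 1 cell.

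Over all members, 3 of the 5 were more than 1.5-fold higher in tenocytes of 6 M DTR than of 6 M WT (Ccn1, Ccn2 and Ccn3) and none was more than 1.5-fold lower. Ccn3 was past 1.5-fold in 7 of 12 alternatives, from 1.23 to 3.53, and at 1.49 where unsupervised clusters replaced the gate. Ccn5 was also past 1.5-fold in 1 of 12 alternatives. Among 5497 genes with at least 20 CPM in either library, 6.06% were higher and 5.97% lower by that measure. Ccn4, at 17.0 and 14.9 CPM, did not reach that floor. For 21 M B6 1 member was higher (Ccn1, with Ccn2 also past 1.5-fold in 1 of 12 alternatives and Ccn3 and Ccn5 in 2 each), where 6.74% of 5296 genes were, and 1 was lower (Ccn4), where 12.4% of genes were, although Ccn4 at 17.0 and 6.99 CPM did not reach the 20 CPM these shares are counted over. In epitenon fibroblasts 1 member was higher in 6 M DTR (Ccn2, in 9 of 12 alternatives, with Ccn4, under 20 CPM, also past 1.5-fold in 4 of 11) and none lower, where 1.14% of genes were higher and 3.02% lower. For 21 M B6 no member was higher, although Ccn1 was in 3 of 12 alternatives, and 1 was lower (Ccn4, again under 20 CPM, with Ccn3 also past 1.5-fold in 1 of 12), where 4.58% of genes were higher and 8.64% lower. The median log2 ratio of all genes was 0.02 and -0.26 in tenocytes and 0.01 and -0.26 in epitenon fibroblasts for 6 M DTR and 21 M B6, so ratios of 21 M B6 stand higher against the typical gene than their value shows.

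**Figure D4:**
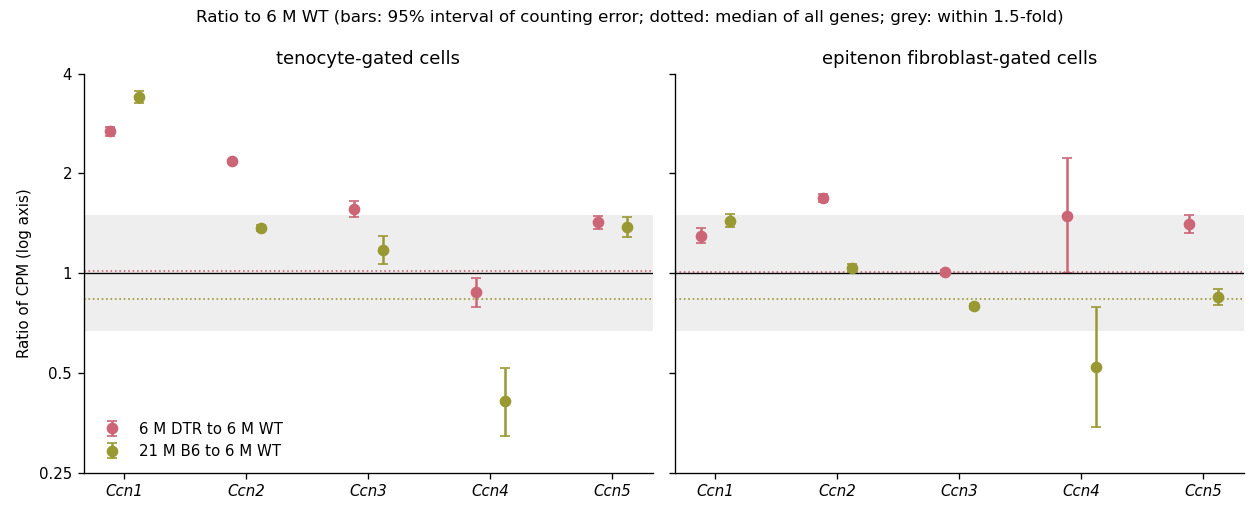
Ratio of CPM to 6 M WT (log axis) of each CCN gene in tenocytes and epitenon fibroblasts, with 95% intervals of counting error as bars, the median ratio of all genes as dotted lines and the range within 1.5-fold in grey. Ccn1 and Ccn2 of tenocytes lie at 2.68 and 2.17 in 6 M DTR, and Ccn4 of tenocytes at 0.411 in 21 M B6.

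The pooled mice were of both sexes in unequal shares, and cells of either sex come from different animals. Among tenocytes called female, Ccn1 was at 80.2, 240 and 235 CPM in the 3 libraries, and among those called male at 120, 271 and 340 CPM. Ccn2 was at 718, 1555 and 989 CPM in female and at 1041, 1950 and 1171 CPM in male tenocytes. Both genes were higher in male than in female tenocytes in each library, and both were lowest in 6 M WT in either sex. The ratio of 6 M DTR to 6 M WT was 2.99 in female and 2.26 in male cells for Ccn1.
Ccn3 of epitenon fibroblasts showed a different pattern, at 1554, 1593 and 1392 CPM in female cells and 2277, 1913 and 1439 CPM in male cells. The male level thus exceeded the female by most in 6 M WT and by least in 21 M B6, and the ratio of 21 M B6 to 6 M WT was 0.896 in female and 0.632 in male cells. The number of mice of either sex is not given in the sources used here, so sex and animal cannot be told apart.

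**Figure D5:**
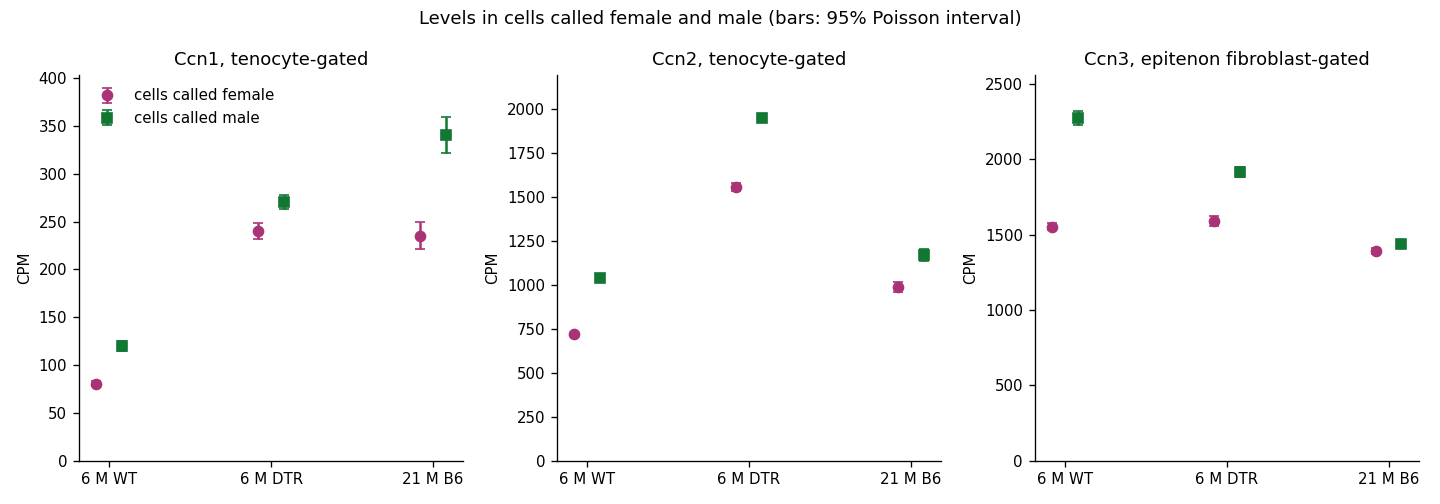
Level (CPM, linear axes from 0) of Ccn1 and Ccn2 in tenocytes and of Ccn3 in epitenon fibroblasts, for cells called female (circles) and male (squares) in each library, with 95% Poisson intervals as bars. Ccn1 and Ccn2 are lowest in 6 M WT in either sex, and Ccn3 of male cells is at 2277 CPM in 6 M WT but at 1439 CPM in 21 M B6.

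Ccn2 was detected more often in tenocytes that held Ccn1 than in those without it. In tenocytes of 6 M WT, 57.8% of cells with a Ccn1 UMI after thinning also held one of Ccn2, against 45.3% of cells without Ccn1. The same shares were 74.8% and 65.9% in 6 M DTR and 67.4% and 45.8% in 21 M B6, so the direction was the same in each library. Over 20 profiles (a class in a library with at least 50 cells each), the levels of Ccn2 and Ccn5 had a Pearson correlation of 0.87 and those of Ccn1 and Ccn2 of 0.76 on the log2(CPM + 1) scale, whereas Ccn3 and Ccn4 had 0.0174. These profiles share libraries and depth, and the values are descriptions.

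The genes whose levels over these 20 profiles were most like each member, among 6247 genes, were for Ccn1 Tcf7l2, a transcription factor of the Wnt pathway (r = 0.96), Laptm4a (0.94) and Epn2 (0.94). For Ccn2 they were Ccdc80, a secreted matrix protein (0.95), Gas1 (0.94) and Prelp, a small leucine-rich proteoglycan (0.93). For Ccn3 they were Enpp2, the autotaxin gene (0.94), Olfml2a (0.92) and the microfibril gene Fbn1 (0.92), and for Ccn5 Pcolce2, itself one of the epitenon gate markers (0.94), Gsn (0.94) and Igfbp6 (0.93). Ccn4 had the lowest values, with Nradd (0.90), Spire1 (0.87) and Tns3 (0.86).

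Ccn1 and Ccn2 are immediate early genes, and the other genes of that group were measured beside them. In tenocytes of 6 M DTR 7 of 18 immediate early genes were more than 1.5-fold higher and 0 lower, with a median log2 ratio of 0.46 against 0.04 over 9425 genes with at least 5 CPM, of which 7.87% were higher and 5.9% lower. They were Fos (1.82), Fosb (1.85), Jun (1.69), Egr1 (1.81), Egr2 (2.28), Egr3 (3.47) and Nr4a1 (1.88). In 21 M B6 it was 10 of 18 higher and 0 lower, median 0.84 against -0.27 over all genes, of which 6.59% were higher and 16.4% lower, with Fos at 2.70, Zfp36 at 2.55 and Atf3 at 2.31. The summed level of the list in tenocytes was 10096, 14277 and 17229 CPM, the order in which Ccn1 also stood over all tenocytes. In tenocytes called female, Ccn1 of 6 M DTR and 21 M B6 did not differ beyond counting error. In epitenon fibroblasts 0 of 18 passed 1.5-fold in either direction in 6 M DTR (median -0.04), where Ccn1 had a ratio of 1.30, and 9 were higher in 21 M B6 (median 0.57). Of all genes at this floor in epitenon fibroblasts, 2.22% were higher and 4.53% lower in 6 M DTR, and 4.63% higher and 11.1% lower in 21 M B6. The part of this response in the Ccn1 values was not tested. Median mitochondrial shares of tenocytes were 2.79%, 2.86% and 5.57%, and with a limit of 5% the Ccn1 ratio of 21 M B6 was 2.62. The 8 muscle fibre markers, none of them at 0, summed to 22.1, 75.8 and 119 CPM in tenocytes, in the same order as the Ccn1 CPM over all tenocytes, and their part in the Ccn1 values was not tested.

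Ccn2 and Ccn1 are also targets of YAP and TAZ with the TEAD factors, which act when the Hippo kinases are off. Of 20 other such targets, 19 were measured in tenocytes of 6 M DTR, with 4 more than 1.5-fold higher (Dock5 at 2.89, Nt5e at 2.01, Rbms3 at 1.59 and Amotl2 at 1.52) and 1 lower (F3, the tissue factor gene, at 0.394), where 7.87% of all genes were higher and 5.9% lower. The median log2 ratio was 0.28, and the target with the highest level, Ccdc80, had a ratio of 0.705, followed by Tgfb2 at 1.06. Among 18 measured in 21 M B6, 5 were higher, with Ankrd1 at 4.31 and Gadd45a at 2.73, and 3 lower, with a median of -0.08, where 6.59% of all genes were higher and 16.4% lower, so the share of lower targets was near that of all genes. Epitenon fibroblasts had 0 higher and 1 lower of 17 measured in 6 M DTR (Igfbp3 at 0.453). In 21 M B6 they had 3 higher and 4 lower of 18. Of all genes in that class, 2.22% were higher and 4.53% lower in 6 M DTR, and 4.63% and 11.1% in 21 M B6. So Ccn2 and Ccn1 had larger tenocyte ratios in 6 M DTR than all but Dock5 of these targets.

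Components of the Hippo pathway itself differed little in 6 M DTR. None of 13 measured passed 1.5-fold in either class of 6 M DTR, with medians of 0.03 and -0.01, and the TAZ gene Wwtr1 had a ratio of 1.11 and Mob1a of 0.916 in tenocytes. For 21 M B6 tenocytes had 2 higher, Yap1 at 1.76 and Tead3 at 1.95, and 1 lower, the kinase gene Stk4 at 0.614. Epitenon fibroblasts had Tead3 at 1.59 and Stk4 at 0.665. Of all genes, 7.87% were higher and 5.9% lower in tenocytes of 6 M DTR, and 6.59% and 16.4% in those of 21 M B6. In epitenon fibroblasts these shares were 2.22% and 4.53% in 6 M DTR, and 4.63% and 11.1% in 21 M B6. Of 10 targets of SRF and its cofactors MRTF, 8 were measured in tenocytes, with 0 past 1.5-fold in 6 M DTR and 1 lower in 21 M B6 (Actg1 at 0.643), and Acta2 was at 1.87 in epitenon fibroblasts of 6 M DTR.

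TGF-beta response genes, the other classic setting of Ccn2, were divided. In tenocytes of 6 M DTR 3 of 8 were more than 1.5-fold higher, among them Postn at 4.27 and Ltbp2 at 3.23, and 1 was lower, the corepressor gene Tgif1 at 0.631, beside 7.87% and 5.9% of all genes. The 2 with the highest level, Pmepa1 and Tgfbi, had ratios of 1.30 and 0.702, and the median log2 ratio was 0.43. None of 8 passed 1.5-fold in epitenon fibroblasts of 6 M DTR, where Ccn2 did. Of all genes there 2.22% were higher and 4.53% lower, so none of 8 was near the share over all genes. None of 7 passed it in tenocytes of 21 M B6, where 6.59% of all genes were higher and 16.4% lower. In epitenon fibroblasts of 21 M B6 2 of 8 were lower, Ltbp2 at 0.512 and Postn at 0.316. Of all genes there 4.63% were higher and 11.1% lower. Of Wnt targets, the setting for which Ccn4 and Ccn5 were named, 4 of 10 were measured in tenocytes of 6 M DTR, with Axin2 at 2.34 and Apcdd1 at 0.606 past 1.5-fold. For 21 M B6 Nkd2 was at 2.03 in tenocytes, the 1 past 1.5-fold of 3 measured. In epitenon fibroblasts 5 were measured in either comparison. Of these Nkd1 alone was past 1.5-fold, at 0.540 in 21 M B6 and 0.408 in 6 M DTR. The shares over all genes are those given above for each class and library.

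Of 14 receptors and binding partners of CCN proteins, 9 were measured at 5 CPM or more in tenocytes and 11 in epitenon fibroblasts, and none of these passed 1.5-fold in 6 M DTR, with median log2 ratios of 0.30 and -0.13. Below 5 CPM in tenocytes, Itgb3 had a ratio of 1.70, Fgfr2 of 1.77 and Notch1 of 1.56, named after their values were seen. Syndecan 4 (Sdc4), a proteoglycan partner, had a ratio of 0.805 in tenocytes of 6 M DTR, and the receptor Lrp1 of 0.952. In 21 M B6 Sdc4 was lower by more than 1.5-fold in both classes, at 0.639 in tenocytes and 0.644 in epitenon fibroblasts. It was the 1 gene lower of 9 measured in tenocytes and of 11 in epitenon fibroblasts. Of all genes 16.4% and 11.1% were lower there, with median log2 ratios of -0.27 and -0.26, so these counts were not above the share over all genes.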

How the data were processed

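FDL tendon cells were profiled by 10x Genomics 3′ v3 single-cell RNA sequencing in 3 libraries. The authors deposited filtered UMI counts per gene and cell, made with Cell Ranger, for which the processing notes give version 2.1.1 and the file headers 6.0.1. Whether strand or multimapping settings were changed is not given in the sources used here. The filter kept barcodes in which 1000 to 5000 genes were detected and mitochondrial counts did not exceed 10%. A cell was placed in a class when at least 3 of 8 markers were detected and its score led the next class by at least 0.1. Sub-gates needed a z-score of at least 0.5 and a lead of at least 0.5 over the next sub-gate. Markers beyond those in the names were Egln3 (Slurp1/Serpinb7/Vcan), Col1a1 and Col3a1 (Kera/Ucma), and Dpp4 and Sema3c (Pi16). Clusters (scanpy 1.11.5, 2000 variable genes without the CCN genes, 20 components, 20 neighbours, Leiden resolution 0.5) were used as an alternative and for tenocyte states. Counts were summed per class and library and divided by the total (CPM), with exact Poisson intervals for levels and exact conditional binomial intervals for ratios (scipy 1.17.1). Shares of cells used 2000 UMIs per cell, drawn at random, with Clopper-Pearson intervals. A gene was counted as higher or lower past 1.5-fold, among genes with at least 20 CPM (lists: 5 CPM) in either library. Doublets were kept, since Scrublet's own threshold called 1 to 7 cells per library. Scripts were tested on simulated data. TMM factors came from edgeR 4.0.16.

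All members were named, with the 3 genes most like each over the profiles (genes with at least 50 CPM in a profile) and, from each list, the 2 genes highest in tenocytes of 6 M WT and examples past 1.5-fold. The members and lists were chosen with earlier results of these data known. Coding sequences and positions came from GENCODE and the promoter from RefSeq. Classes under 50 cells in a library were not compared, nor was the mixed muscle fibre gate. The value of 1 gene that the list counts include is not reported here. Ratios of vascular cells and macrophages within cells called female or male were added after seeing the data.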

Additional observations from a re-analysis of the deposited data

Results flagged for a closer look

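Ccn2 went opposite ways in different classes between 6 M DTR and 6 M WT. The ratio was 0.290 in Schwann cells, against 2.17 in tenocytes, 1.69 in epitenon fibroblasts, 2.76 in endothelial cells and 2.95 in mural cells, and the difference was not tested. In Schwann cells it rested on 24 and 79 UMIs, 43 of the latter from 1 cell of 6 M WT.

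Several ratios to 6 M WT were past 1.5-fold, with intervals clear of it, in barcodes that the comparisons left out. These sets were not divided by cell class, and the part of their class mix in the ratios was not tested. In cells of no class the ratio for 6 M DTR was 1.60 for Ccn2 and 1.68 for Ccn5. In barcodes with over 10% mitochondrial counts Ccn2 had a ratio of 2.41 in 6 M DTR and Ccn5 of 3.62 in 21 M B6. The latter had an interval of 1.94 to 7.64 on 808 barcodes of 21 M B6 and 152 of 6 M WT. Within gated classes Ccn5 of 21 M B6 had ratios of 1.38 in tenocytes and 0.846 in epitenon fibroblasts. In barcodes with over 5000 genes Ccn1 had a ratio of 1.78 in 21 M B6 and Ccn2 of 1.63 in 6 M DTR.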

How the results depend on the processing

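No paired analysis was possible because each group was 1 library. Ratios to 6 M WT are for Ccn1 and Ccn2 of tenocytes and Ccn3 of epitenon fibroblasts. With TMM scaling the Ccn2 ratio of 6 M DTR was 2.12, and for 21 M B6 Ccn1 was 4.08, Ccn2 1.64 and Ccn3 0.955. With the macrophage level subtracted, Ccn1 was 4.18 and Ccn2 2.31 in 6 M DTR, and 5.12 and 1.45 in 21 M B6. Macrophages were above T cells in Ccn1 in each library, and the T cell level was not subtracted. As a mean over cells, Ccn1 was 2.53 and Ccn3 1.03 in 6 M DTR, and 3.22 and 0.807 in 21 M B6. With a mitochondrial limit of 5%, 21 M B6 had Ccn1 at 2.62, Ccn2 at 1.33 and Ccn3 at 0.830, and with no such limit Ccn1 at 3.71. With no upper limit on genes, Ccn1 was 2.56 and Ccn2 2.15 in 6 M DTR, and 21 M B6 had 3.22, 1.42 and Ccn3 at 0.808. Without the 5% of cells with the highest Scrublet scores, a choice made after seeing the data, the Ccn2 ratio of 6 M DTR was 2.23 and that of 21 M B6 1.41. With the stricter gate Ccn3 was 1.04 in 6 M DTR, and 21 M B6 had Ccn1 at 3.59, Ccn2 at 1.44 and Ccn3 at 0.744. With clusters in place of the gate the Ccn3 ratio of 6 M DTR was 0.968 and that of 21 M B6 0.854. In female cells the ratios of 6 M DTR were 2.99 for Ccn1 and 1.03 for Ccn3, and those of 21 M B6 2.93 and 0.896. In male cells Ccn1, Ccn2 and Ccn3 were 2.26, 1.87 and 0.840 in 6 M DTR, and 2.84, 1.12 and 0.632 in 21 M B6. The cause of these shifts was not tested.

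Over all alternatives, 145 of 236 ratios of the members moved by less than counting error and 91 by more, and no called ratio changed direction. These counts include the alternative without doublets called by Scrublet's own threshold. It left out only 2, 7 and 1 cells of the 3 libraries, so its values could hardly differ. In tenocytes, Ccn1 stayed past 1.5-fold in 12 of 12 alternatives in either comparison and Ccn2 of 6 M DTR in 12 of 12, while Ccn3 of 6 M DTR did so in 7 of 12, from 1.23 to 3.53. The 3.53 came from subtracting the macrophage level, in which 1 cell of 6 M WT held 111 of 239 Ccn3 UMIs. Each group being 1 library, the spread between animals is unknown, and intervals cover counting error only. Ccn4 had at most 1230 UMIs in a class of a library, which limits what can be seen of it.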

Other observations

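Satellite cells, the stem cells of skeletal muscle, were too few to compare, with 32, 31 and 34 cells (6 M WT, then 6 M DTR, then 21 M B6). Their Ccn2 level was 634 CPM (553 to 723), 853 CPM (740 to 978) and 1965 CPM (1815 to 2124). The 10% of these cells with the most UMIs held 63.2%, 59.2% and 62.1% of them. Ccn3 was nearly absent there, on 2, 2 and 10 UMIs.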
